A study of Homo sapiens with 9 samples.

Results

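The genes described here are 38 members of the hypoxia response and of glycolysis, chosen by symbol with earlier results of these data known. All 38 are present among the 36785 genes of the deposited table. Of the 38 members, 16 are glycolytic enzymes. The other 22 are the hypoxia-inducible factors (HIF), their oxygen sensors and HIF targets, including the glucose transporters and the kinases that steer glucose use. Poly(A)-selected RNA was sequenced from SKOV3, a long-established line of human ovarian cancer cells known for its amplified ERBB2 gene. The 9 libraries form 3 groups of 3, all from cells transduced with lentivirus: shNC, with the genotype given as NC and used as the control, sh1, labelled STXBP6 knockdown_1, and sh3, labelled STXBP6 knockdown_3. STXBP6 encodes amisyn, a syntaxin-binding protein of regulated exocytosis. The labels give neither oxygen tension nor glucose supply, nor do they name separate cultures within a group, so the p-values cover only library-to-library spread, which may be technical.

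In background terms, cells sense oxygen through prolyl hydroxylases that mark HIF proteins for destruction while oxygen is present. When oxygen falls, the alpha subunits encoded by HIF1A and EPAS1 escape this mark, pair with ARNT and bind DNA at short hypoxia response elements. Their targets include most glycolytic enzymes, so that pyruvate made from glucose is turned to lactate instead of entering mitochondria. Many cancer cell lines run this program in air, and several of the targets are also set by nutrient and growth factor signals. HIF activity is governed mainly at the level of the protein, which RNA sequencing does not measure.

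The libraries held 57654447 to 69264400 counts, and 21296 genes were tested, all 38 members among them. STXBP6 could not be used to check the labels: it had 4, 0 and 15 counts in the shNC libraries, 7, 4 and 26 in those labelled sh1, and 20, 31 and 18 in those labelled sh3 (log2 fold change 0.87, adjusted p = 0.56, and 1.81, adjusted p = 0.23, edgeR). Every direction below therefore rests on the labels. Of 8 markers listed for an epithelial ovarian cancer line, ERBB2 averaged 755 FPKM (fragments per kilobase of transcript, scaled to library depth) over the 9 libraries. KRT8 averaged 116, KRT18 54.6, PAX8 40.4 and KRT7 30.6. EPCAM was lower at 1.89, WT1 stood at 0.244 and MUC16, the CA-125 antigen, at 0.0139. The 4 leukocyte markers in the table summed to at most 0.414 FPKM in any library. Markers of endothelial cells summed to 1.87 to 2.12 FPKM in shNC, 0.963 to 1.1 in sh1 and 2.67 to 2.86 in sh3. Most of this sum was KDR, with group means of 1.74, 1.02 and 2.67 FPKM. KDR fell 1.67-fold with sh1 and rose 1.53-fold with sh3, while PECAM1 fell 7.39-fold and 3.47-fold (called by edgeR). Markers of fibroblasts summed to 14.9 to 18.2, 16.3 to 16.9 and 12.1 to 13.1 FPKM. Of these 5, COL1A1 rose 1.71-fold with sh1 and 3 fell, DCN by 6.89-fold. With sh3 COL1A1 rose 1.33-fold and 2 fell, LUM by 2.83-fold. The 8 markers of the line moved both ways (log2 fold changes, called by edgeR). With sh1 4 fell, ERBB2 (-0.83), PAX8 (-1.02), KRT18 (-0.36) and EPCAM (-0.55), and KRT7 rose (0.91). With sh3 PAX8 fell (-0.64), KRT8 (0.64) and KRT18 (0.15) rose, and ERBB2 was not called (-0.09). The part of these differences in the results below was not tested. Among the controls, shNC replicate 3 had the lowest level of the 3 for 24 of 38 members, against 8 for replicate 1 and 6 for replicate 2.

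Most of the members that changed were lower in the hairpin libraries. The members were chosen with earlier results of these data known, so the shares below describe them and are no independent test against all genes. In sh1 27 of 38 were called, where 38.7% of all tested genes were: 22 of 38 fell and 5 rose, or 57.9% and 13.2%, where 18.8% of all tested genes fell and 19.9% rose. In sh3 19 were called, where 26.9% of all tested genes were: 15 fell and 4 rose, or 39.5% and 10.5%, where 12.4% of all tested genes fell and 14.4% rose. The members are more abundant than most genes, with a median of 16 FPKM against 1.89 over all tested genes, and abundant genes are called more readily. Among the 12489 genes with a mean of at least 1 FPKM, which hold 34 members, 24.9% fell and 30.5% rose with sh1, and 17.3% fell and 22.3% rose with sh3. The median log2 fold change of the members was -0.19 for sh1 and -0.13 for sh3, against -0.02 and -0.01 over all tested genes. The 3 library values did not overlap those of shNC for 28 members in sh1 and 22 in sh3, where 49.9% and 40.5% of all tested genes did not overlap. A called change of at least 0.58 on the log2 scale was seen in 9 members with sh1 and 5 with sh3, against 12.8% and 6.46% of all tested genes. Without shNC replicate 3, 24 members fell and 5 rose with sh1, and 17 fell and 4 rose with sh3.

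Both comparisons use the same 3 shNC libraries, so they are not independent of each other. In them 14 members fell in both, EPAS1, CA12, NDRG1, DDIT4, BNIP3, BNIP3L, PDK1, SLC2A1, HK2, GPI, ALDOA, ALDOC, PKM and LDHA, where 8.43% of all tested genes fell in both. P4HA2 and ENO2 rose in both (10.6% of tested genes), and HIF1A and TPI1 rose in one and fell in the other (1.23% of tested genes). A further 9 members were called in sh1 alone and 1, BHLHE40, in sh3 alone, and 10 were called in neither. The direct test of sh3 against sh1 called 20 members, 14 higher and 6 lower in sh3, where 12.9% and 13% of all tested genes were called, or 25.9% in both directions. Among genes with a mean of at least 1 FPKM these shares were 17.9% higher and 19.4% lower. The libraries of sh3 and sh1 did not overlap for 23 members (41.8% of all tested genes), and 4 members, ADM, NDRG1, DDIT4 and HK2, were called with a difference of at least 0.58 (6.76% of all tested genes). Of the 14 members that fell in both, 7 were higher in sh3 than in sh1 and 1, GPI, was lower, and the remaining 6 were not called.

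**Figure D1:**
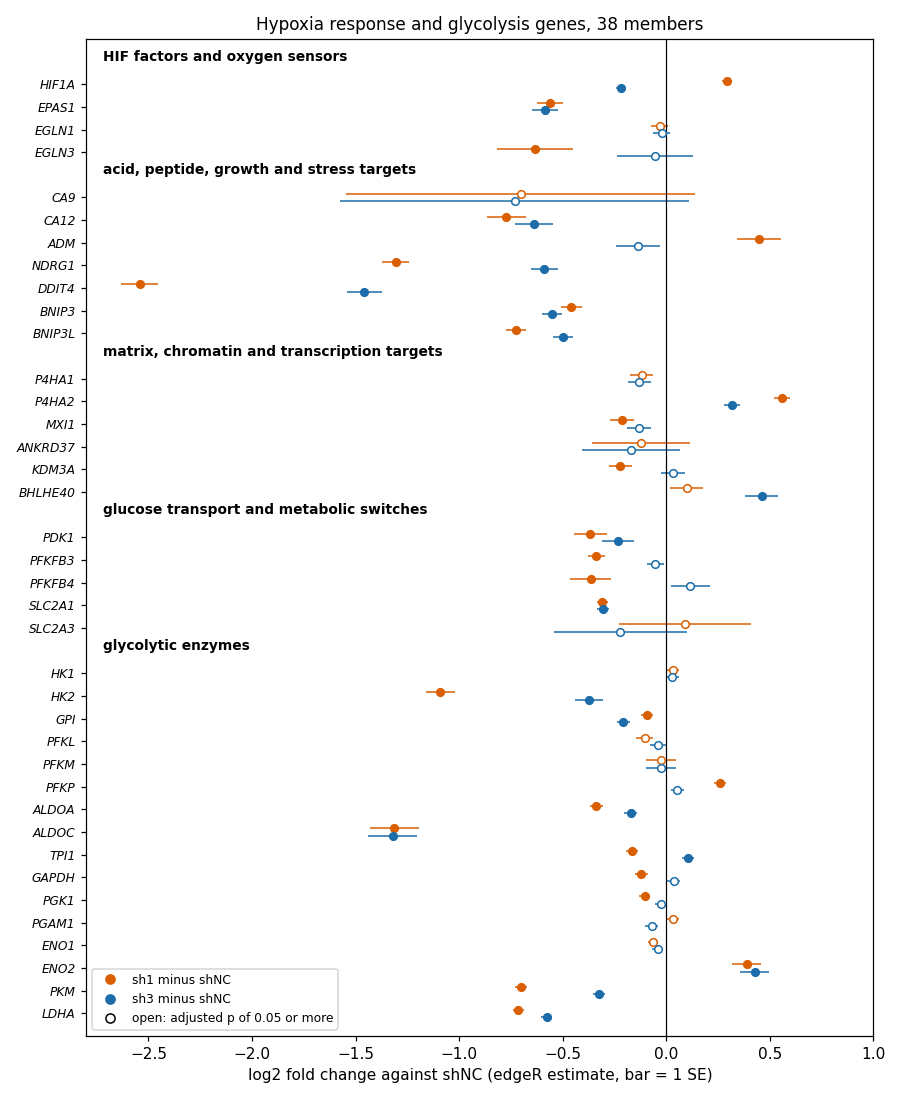
The horizontal axis is the log2 fold change against shNC for each of the 38 members, listed by role on the vertical axis, with orange points for sh1, blue points for sh3, bars of 1 SE and open symbols for an adjusted p of 0.05 or more. DDIT4 lies farthest to the left at -2.54 and -1.46, HIF1A has its points on opposite sides of 0, and the enzymes HK1, PFKM and PGAM1 sit beside 0.

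The DNA around the members' start sites was searched for the core letters of the hypoxia response element, ACGTG and GCGTG, on both strands, in RefSeq windows (GRCh38.p14) from 250 bases before to 50 bases after each start. At least 1 match was present in 48.4% of all 35116 windows, and in 42 of the 61 windows (68.9%) of the 35 members matched by symbol (unmatched: SLC2A3, BNIP3L and NDRG1). Counted by gene, with a match in any of its windows, 12 of the 12 matched members that fell in both comparisons and 20 of the 23 other matched members (87.0%) held one, against 52.4% of all 27305 genes. By gene, nearly all members of either set thus hold the letters, and the difference between the sets was not tested. A window with 3 or more matches was present in 5 of those 12 and in 4 of those 23, against 12.1% of all genes. Shares of windows look further apart, at 16 of 17 (94.1%) against 26 of 44 (59.1%), but a gene can have up to 7 windows here, and HK1 and PFKM alone give 14 of the 44, some of them nearly the same stretch. Base composition differs from the genome's windows as well, with a median of 69.7% G and C in the members that fell in both, 68.8% in the other members and 58.7% over all windows. These counts describe letters only. The 5 windows shown were picked after the values were seen. DDIT4, ALDOC and LDHA fell by over 0.5 on the log2 scale in both comparisons and hold several matches, PGK1 is an enzyme that moved little, and P4HA2 rose. Capitals mark the matches, and a palindromic CACGTG counts once on each strand.
DDIT4, chr10:72273674-72273973, plus strand: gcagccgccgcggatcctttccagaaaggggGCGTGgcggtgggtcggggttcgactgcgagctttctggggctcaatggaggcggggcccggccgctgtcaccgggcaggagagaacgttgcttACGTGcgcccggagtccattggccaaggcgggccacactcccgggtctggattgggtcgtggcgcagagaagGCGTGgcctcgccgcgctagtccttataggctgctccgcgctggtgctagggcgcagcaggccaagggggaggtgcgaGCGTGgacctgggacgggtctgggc
ALDOC, chr17:28576846-28577145, minus strand: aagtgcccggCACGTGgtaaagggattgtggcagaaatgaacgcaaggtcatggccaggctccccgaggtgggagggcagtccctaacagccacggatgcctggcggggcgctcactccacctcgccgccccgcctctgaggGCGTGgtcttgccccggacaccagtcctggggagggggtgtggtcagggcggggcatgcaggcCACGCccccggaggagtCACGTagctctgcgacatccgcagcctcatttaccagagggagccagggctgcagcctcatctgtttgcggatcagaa
LDHA, chr11:18394313-18394612, plus strand: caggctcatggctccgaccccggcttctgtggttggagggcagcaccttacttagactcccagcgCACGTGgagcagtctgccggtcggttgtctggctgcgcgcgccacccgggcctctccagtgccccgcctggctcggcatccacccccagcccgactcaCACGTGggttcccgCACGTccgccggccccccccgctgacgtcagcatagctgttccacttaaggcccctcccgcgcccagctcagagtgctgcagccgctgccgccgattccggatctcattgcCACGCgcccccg
PGK1, chrX:78103998-78104297, plus strand: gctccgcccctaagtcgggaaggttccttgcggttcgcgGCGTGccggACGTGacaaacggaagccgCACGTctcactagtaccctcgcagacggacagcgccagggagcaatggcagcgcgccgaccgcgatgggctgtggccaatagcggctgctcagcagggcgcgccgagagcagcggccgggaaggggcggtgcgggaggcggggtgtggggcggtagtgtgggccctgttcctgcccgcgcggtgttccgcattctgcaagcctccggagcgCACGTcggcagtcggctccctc
P4HA2, chr5:132227042-132227341, minus strand: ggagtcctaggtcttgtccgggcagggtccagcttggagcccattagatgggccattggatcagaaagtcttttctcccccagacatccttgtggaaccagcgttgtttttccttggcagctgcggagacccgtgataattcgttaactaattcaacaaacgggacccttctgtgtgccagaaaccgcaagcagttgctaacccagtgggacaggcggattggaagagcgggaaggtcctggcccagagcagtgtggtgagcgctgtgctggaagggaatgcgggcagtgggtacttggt
The DDIT4 window holds 4 matches, ALDOC 5, LDHA 6 in the richer of its 2 windows, PGK1 4 and P4HA2 0. PGK1 thus carries as many matches as DDIT4, although its level fell by 6.94% with sh1 and was not called with sh3. No match in the P4HA2 window says only that these letters are not in those 300 bases. For P4HA2 and PGK1 the RefSeq start lies inside the longer span that the deposited table gives the gene.

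The factors themselves moved in different ways. HIF1A (ENSG00000100644, chromosome 14, 61695513 to 61748258) encodes the alpha subunit that drives most glycolytic targets, and on FPKM it was the most abundant of the factors and sensors. Its level was 1011, 1016 and 1039 CPM (counts scaled to library totals adjusted by TMM) in shNC, 1266, 1235 and 1257 in sh1, and 877, 882 and 875 in sh3. The 3 groups do not overlap, with sh1 highest and sh3 lowest. HIF1A rose by 0.29 ± 0.02 (log2 fold change ± SE, adjusted p = 1.3e-06) with sh1 and changed by -0.22 ± 0.02 (adjusted p = 3.0e-05) with sh3, and the difference of sh3 from sh1 was -0.51 ± 0.02 (adjusted p = 6.6e-08, edgeR). EPAS1 (ENSG00000116016, chromosome 2, 46293667 to 46386696), the alpha subunit known as HIF-2 alpha, had 52.8, 50.0 and 49.8 CPM in shNC. It had 37.0, 32.7 and 33.8 in sh1 and 35.9, 31.3 and 34.4 in sh3, so that every hairpin library lies below every control. The log2 fold changes were -0.56 ± 0.06 and -0.59 ± 0.06 (adjusted p = 2.2e-05 and 3.4e-05, edgeR), with a difference between hairpins of -0.03 ± 0.06. EPAS1 made up 3.27% to 3.55% of the summed FPKM of HIF1A and EPAS1 in shNC, 1.83% to 2.02% in sh1 and 2.44% to 2.81% in sh3.

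Of the oxygen sensors, EGLN1 (PHD2), the main HIF prolyl hydroxylase, was not called in any comparison, with 77.2 to 83.3 CPM in shNC, 76.6 to 82.2 in sh1 and 77.6 to 80.8 in sh3. EGLN3 (PHD3), a sensor that is itself a HIF target, was scarce, with 173 to 292 counts in shNC, 133 to 154 in sh1 and 190 to 267 in sh3. Its change was -0.63 ± 0.18 with sh1 (adjusted p = 0.017, edgeR) and -0.05 ± 0.18 with sh3. Without shNC replicate 2 the sh1 value was -0.48 (adjusted p = 0.081) and without sh1 replicate 3 it was -0.51 (adjusted p = 0.074). In the list of 14 other regulators of the pathway, 13 were tested, of which 2 rose and 2 fell with sh1 (15.4% each, where 19.9% and 18.8% of all tested genes did) and 2 rose and 3 fell with sh3 (15.4% and 23.1%, where 14.4% and 12.4% did). These shares are near those over all genes except for the falls with sh3, which are 3 genes. ARNT, the partner of both alpha subunits, fell with sh1 (-0.46, adjusted p = 3.7e-05) and was not called with sh3 (-0.08, adjusted p = 0.34, edgeR). VHL, the ubiquitin ligase subunit that recognises hydroxylated HIF, fell in both (-0.36 and -0.41, adjusted p = 1.8e-04 and 1.3e-04), and the coactivator CREBBP rose in both (0.19 and 0.19, adjusted p = 5.5e-04 and 9.7e-04, edgeR).

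DDIT4 gave the largest change of all members. It encodes REDD1, an inhibitor of the growth kinase complex mTORC1 that is induced by low oxygen and by other stresses (ENSG00000168209, chromosome 10, 72273919 to 72276036). The shNC libraries held 107, 99.96 and 86.4 CPM, the sh1 libraries 17.6, 15.9 and 16.8, and the sh3 libraries 38.4, 31.5 and 36.8. The groups are far apart, with sh3 between sh1 and the controls. The fall was 5.83-fold with sh1 (log2 fold change -2.54 ± 0.09, adjusted p = 3.2e-09) and 2.75-fold with sh3 (-1.46 ± 0.09, adjusted p = 4.0e-07), and sh3 stood 2.12-fold above sh1 (adjusted p = 5.1e-06, edgeR). NDRG1 (ENSG00000104419, chromosome 8, 133237175 to 133302022), a stress-responsive protein widely used as a hypoxia marker, had the same order of groups. It had 115, 113 and 97.9 CPM in shNC, 47.1, 43.3 and 41.6 in sh1, and 72.2, 70.3 and 74.7 in sh3. It fell by 59.6% and fell by 33.5% (adjusted p = 3.4e-08 and 3.6e-05), with 1.65-fold more in sh3 than in sh1 (adjusted p = 1.0e-05, edgeR).

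BNIP3 and BNIP3L, receptors that mark mitochondria for autophagy, both fell. BNIP3L (ENSG00000104765, chromosome 8, 26383054 to 26413127) went from 97.6, 105 and 95.0 CPM in shNC to 57.6, 61.6 and 61.1 in sh1 and 68.2, 68.8 and 73.7 in sh3. Its log2 fold changes were -0.73 ± 0.05 and -0.50 ± 0.05 (adjusted p = 3.6e-07 and 1.7e-05, edgeR), and no hairpin library reaches a control. BNIP3 gave -0.46 ± 0.05 and -0.55 ± 0.05 (adjusted p = 1.5e-05 and 8.5e-06, edgeR). The table lists 26 genes named as copies of BNIP3, whose counts came to 8.16% to 16.9% of its own, so how reads were divided among them is uncertain.

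CA12, a carbonic anhydrase of the cell surface that helps to regulate pH (ENSG00000074410, chromosome 15, 63321378 to 63381846), had 167, 169 and 128 CPM in shNC, 94.5, 85.0 and 92.1 in sh1, and 107, 92.1 and 98.5 in sh3. The lowest control, replicate 3, still lies above all 6 hairpin libraries. Its changes were -0.77 ± 0.09 and -0.64 ± 0.09 (adjusted p = 4.0e-05 and 3.4e-04, edgeR). CA9, the carbonic anhydrase most often used as a hypoxia marker, was barely detected, with 4 to 22 counts in shNC, 5 to 14 in sh1 and 4 to 20 in sh3, and a change was not detectable at this depth. ARHGEF39, a gene on the other strand that overlaps CA9, had 15000% of its counts, so these few counts are uncertain as well. ADM, the vasodilator peptide adrenomedullin, went the other way with sh1. It had 14.2, 15.5 and 13.0 CPM in shNC, 19.3, 18.8 and 20.2 in sh1, and 10.8, 14.4 and 13.6 in sh3, a rise of 0.45 ± 0.11 with sh1 (adjusted p = 0.0056) and -0.14 ± 0.11 with sh3 (adjusted p = 0.41, edgeR).

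**Figure D2:**
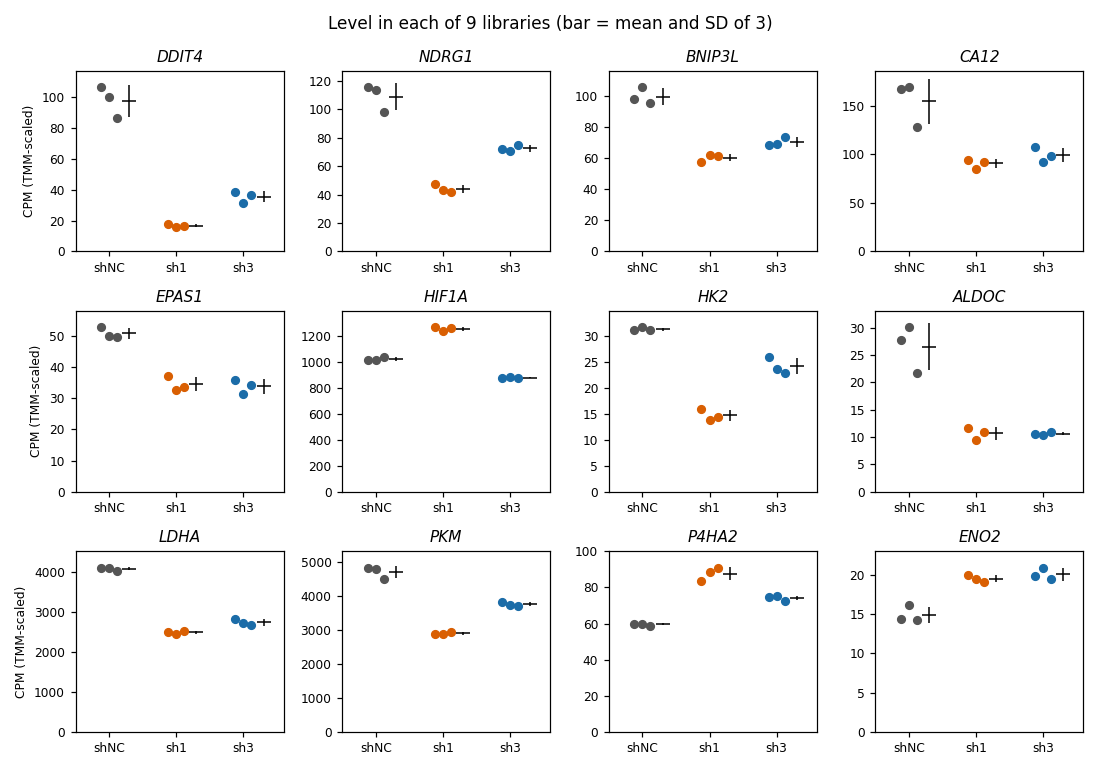
Each panel gives CPM on TMM-scaled totals (vertical axis from 0) for 1 member in the 3 libraries of shNC, sh1 and sh3, with the mean and SD of each group as a bar. DDIT4, NDRG1, HK2, PKM and BNIP3L have sh1 lowest and sh3 between, EPAS1 and ALDOC have both hairpin groups at a like level, HIF1A has sh1 above and sh3 below the controls, and P4HA2 and ENO2 are higher in both.

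Targets that act on matrix, chromatin and transcription did not share a direction: 1 of 6 rose and 2 fell with sh1, and with sh3 2 rose and the other 4 were not called. These few calls stand beside 19.9% higher and 18.8% lower over all tested genes with sh1, and 14.4% and 12.4% with sh3. P4HA2, a collagen prolyl 4-hydroxylase subunit (ENSG00000072682, chromosome 5, 132190147 to 132295315), had 59.7, 60.0 and 58.9 CPM in shNC. It had 83.6, 88.3 and 91.1 in sh1 and 74.7, 75.0 and 72.7 in sh3, above the controls in all 6 libraries (0.56 ± 0.04 and 0.32 ± 0.04, adjusted p = 4.1e-07 and 8.8e-05, edgeR). P4HA1, which encodes the other common alpha subunit of that enzyme, was not called, at -0.12 ± 0.06 and -0.13 ± 0.06. With sh1 P4HA1 passed in 2 alternatives, library totals among them (-0.16, adjusted p = 0.046, edgeR), and with sh3 in 1. By summed FPKM, P4HA2 made up 19.0% to 21.3% of the pair in shNC, 28.4% to 29.3% in sh1 and 25.2% to 26.4% in sh3. BHLHE40 (DEC1), a transcriptional repressor of the circadian system, had 228, 231 and 175 CPM in shNC, 223, 227 and 229 in sh1, and 290.1, 288 and 296 in sh3. It rose with sh3 by 0.46 ± 0.08 (adjusted p = 0.0011, edgeR), and by 0.34 without shNC replicate 3, its lowest library. The histone demethylase KDM3A changed by -0.22 ± 0.06 with sh1 (adjusted p = 0.0093) and 0.03 ± 0.06 with sh3. MXI1, a repressor that binds MAX, changed by -0.21 ± 0.06 with sh1 (adjusted p = 0.011, edgeR), a call lost without sh1 replicate 2 or 3 (adjusted p = 0.055 and 0.056). ANKRD37 had 81 to 140 counts in any library and was not called, and UFSP2, which overlaps it on the other strand, had 1570% of its counts.

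Of the 5 members that carry glucose into the cell or steer its use, 4 fell with sh1 and 2 fell with sh3, where 18.8% and 12.4% of all tested genes fell. SLC2A1, the glucose transporter GLUT1 (ENSG00000117394, chromosome 1, 42925353 to 42958868), had 410.5, 425 and 402 CPM in shNC, 326, 334 and 339.7 in sh1, and 331, 339.7 and 334 in sh3. Both hairpin groups lie below the controls and over each other, and the falls were 19.2% and 18.9% (adjusted p = 5.2e-06 and 1.4e-05, edgeR). SLC2A3, the transporter GLUT3, held 48 to 108 counts in any library, at most 0.496% of the pair's summed FPKM, and was not called. The table lists 3 genes named as its copies, with 1.85% to 27.3% of its counts, so its counts are uncertain too. PFKFB3, which makes the main allosteric activator of phosphofructokinase, had 134, 124 and 123 CPM in shNC, 104, 100.2 and 97.1 in sh1 and 125, 119 and 123 in sh3. The sh1 libraries lie below all others, with log2 fold changes of -0.34 ± 0.04 with sh1 (adjusted p = 3.9e-05), -0.05 ± 0.04 with sh3 (not called), and 0.28 ± 0.04 for sh3 against sh1 (adjusted p = 3.4e-04, edgeR). Its paralog PFKFB4 gave -0.37 ± 0.10, 0.12 ± 0.10 and 0.48 ± 0.10 in the same order (adjusted p = 0.010, 0.43 and 0.0033, edgeR), with UCN2 overlapping it on the same strand at 87.4% of its counts, and the sh1 call was lost without shNC replicate 1 (adjusted p = 0.057). PDK1, the kinase that keeps pyruvate out of the mitochondrial pyruvate dehydrogenase complex, changed by -0.37 ± 0.08 and -0.23 ± 0.08 (adjusted p = 0.0028 and 0.048, edgeR). The sh3 call of PDK1 was lost in 10 of the 16 alternatives (adjusted p 0.025 to 0.18 over all of them), with the replicate block (0.077) and without shNC replicate 1 or 2, sh1 replicate 2 or any sh3 library among them.

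Among the 16 glycolytic enzymes 9 fell (56.2%) and 2 rose (12.5%) with sh1, and 6 fell (37.5%) and 2 rose (12.5%) with sh3. Among all genes of at least 1 FPKM, as these enzymes are, 24.9% fell and 30.5% rose with sh1, and 17.3% and 22.3% with sh3. In shNC their FPKM order was GAPDH at 879 ± 35.1, LDHA at 625 ± 8.44, ENO1 at 569 ± 9.58, PKM at 510.3 ± 21.1, ALDOA at 320.3 ± 8.84 and TPI1 at 157 ± 3.39 (SD, n = 3). PGAM1 and PGK1 followed at 77.6 each with overlapping libraries, then PFKP at 44.8, HK1 at 35.6, GPI and PFKL at 22.5 and 21.9 with overlapping libraries, ALDOC at 9.37, HK2 at 4.90, ENO2 at 3.22 and PFKM at 2.19. All other neighbours in this order were separate in the 3 control libraries. Together the 16 enzymes reached 3360 ± 75.5 FPKM in the controls (SD, n = 3), 2680 ± 28.5 with sh1 and 3020 ± 9.58 with sh3, which is 1.43% to 1.46%, 1.12% to 1.14% and 1.28% to 1.29% of all FPKM. LDHA and PKM accounted for 36.9% and 29.7% of the drop in sh1, and for 60.1% and 30.1% of that in sh3.

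LDHA and PKM, which close the pathway, fell most among the abundant enzymes. LDHA, which turns pyruvate to lactate (ENSG00000134333, chromosome 11, 18394560 to 18408218), had 4103, 4097 and 4026 CPM in shNC, 2483, 2447 and 2519 in sh1, and 2823, 2710.0 and 2659 in sh3. It fell by 39.1% with sh1 (-0.72 ± 0.03, adjusted p = 4.9e-09) and by 33.0% with sh3 (-0.58 ± 0.03, adjusted p = 1.1e-07, edgeR), and the small gap between the hairpins was called (0.14 ± 0.03, adjusted p = 0.0029). PKM, pyruvate kinase (ENSG00000067225, chromosome 15, 72199029 to 72231680), had 4849, 4799 and 4512 CPM in shNC, 2876, 2874 and 2961 in sh1, and 3832, 3753 and 3715 in sh3. Its fall with sh1 (-0.70 ± 0.03, adjusted p = 1.4e-08) was larger than with sh3 (-0.33 ± 0.03, adjusted p = 1.2e-05), by 0.38 ± 0.03 (adjusted p = 4.6e-06, edgeR). The table gives PKM as 1 gene, so its M1 and M2 isoforms were not told apart. LDHB, the isozyme that favours the reverse reaction, was not called with sh1 (0.06) and changed by -0.17 with sh3 (adjusted p = 0.0028, edgeR).

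ALDOC fell by more than LDHA and PKM in both comparisons, and HK2 did so with sh1, both from low levels. With sh3 the fall of HK2 (22.8%) lay between those of PKM (20.2%) and LDHA (33.0%). HK2, the inducible hexokinase (ENSG00000159399, chromosome 2, 74834127 to 74893359), had 31.1, 31.7 and 31.1 CPM in shNC, 15.98, 13.8 and 14.3 in sh1, and 25.9, 23.7 and 22.9 in sh3. The fall was 2.13-fold with sh1 (adjusted p = 2.3e-07) and 1.30-fold with sh3 (adjusted p = 0.0016), and sh3 was 1.64-fold above sh1 (adjusted p = 1.9e-05, edgeR). HK1, the constitutive hexokinase, was not called, at 0.03 ± 0.03 in both. HK2 made up 11.7% to 12.4% of the FPKM of the pair in shNC, 5.57% to 6.59% in sh1 and 9.06% to 10.1% in sh3. This pair leaves out HKDC1, a further hexokinase gene that is not a member. HKDC1 averaged 20.4 FPKM in shNC, 15.1 in sh1 and 14.4 in sh3, against 4.90 for HK2 in shNC. It fell in both comparisons (-0.40 and -0.50, adjusted p = 2.8e-05 and 1.2e-05, edgeR). ALDOC, the aldolase typical of brain (ENSG00000109107, chromosome 17, 28573115 to 28576948), had 27.6, 30.0 and 21.7 CPM in shNC, 11.6, 9.39 and 10.96 in sh1, and 10.6, 10.3 and 10.9 in sh3. Its changes of -1.31 ± 0.12 and -1.32 ± 0.12 (adjusted p = 3.9e-06 and 9.5e-06, edgeR) differed between hairpins by -0.01 ± 0.12. RSKR, which overlaps ALDOC on the same strand with 72.1% of its counts, was not called in either (0.06 and 0.21, adjusted p = 0.85 and 0.51, edgeR). The widely expressed ALDOA, at 1290.0 to 1359 CPM in shNC, 998 to 1074 in sh1 and 1171 to 1178 in sh3, fell by 20.9% and 11.2% (adjusted p = 5.7e-06 and 0.0018, edgeR).

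**Figure D3:**
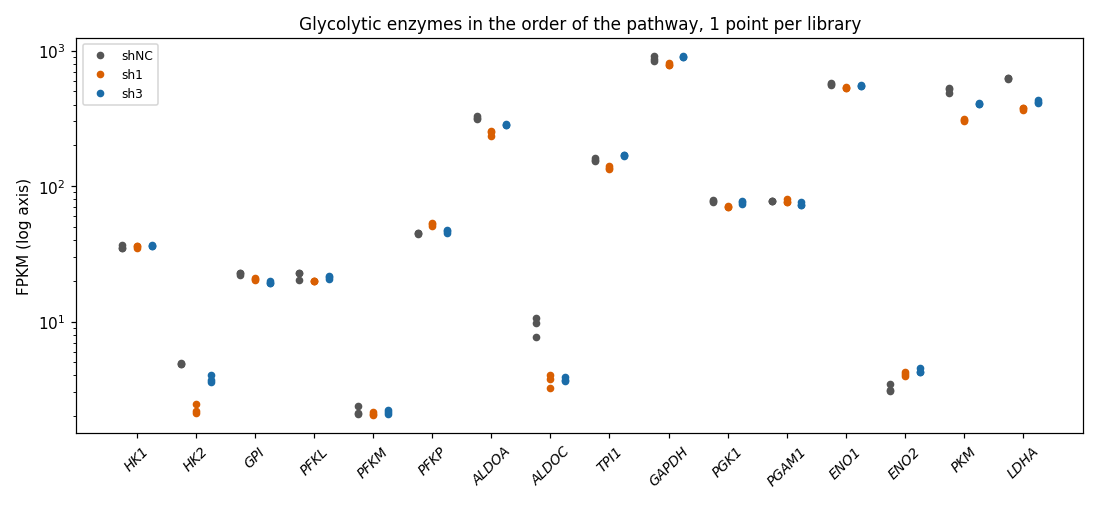
FPKM on a log axis is plotted for the 16 glycolytic enzymes from HK1 to LDHA, with 1 point per library in grey for shNC, orange for sh1 and blue for sh3. The separations are widest for HK2, ALDOC, PKM and LDHA, while GAPDH, PGK1, PGAM1 and ENO1 nearly coincide between groups.

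GAPDH, TPI1, PGK1, GPI, ENO1, PGAM1 and PFKL moved by small amounts. GAPDH, often used as a reference gene, had 2254, 2367 and 2193 CPM in shNC, 2042, 2083 and 2143 in sh1, and 2336, 2346 and 2302 in sh3. It fell by 8.03% with sh1 (adjusted p = 0.0083) and was not called with sh3 (2.47%, adjusted p = 0.47, edgeR). TPI1 (454, 469 and 451 CPM in shNC) was lower in sh1 at 397, 407 and 422 and higher in sh3 at 501, 490.4 and 488. These changes of -0.17 ± 0.03 and 0.11 ± 0.03 (adjusted p = 7.2e-04 and 0.018) differed by 0.27 ± 0.03 (adjusted p = 4.1e-05, edgeR), and the sh3 call was lost with library totals in place of TMM (0.08, adjusted p = 0.051) and without shNC replicate 1 or sh3 replicate 1 (adjusted p = 0.051 and 0.061). PGK1 fell by 6.94% with sh1 (adjusted p = 0.0086) and GPI fell by 6.32% and fell by 13.4% (adjusted p = 0.026 and 3.2e-04, edgeR). The sh1 call of GPI was lost without a filter on low counts (adjusted p = 0.065) and without shNC replicate 1, sh1 replicate 1 or sh1 replicate 2 (0.094, 0.11 and 0.099). ENO1 gave -0.06 and -0.04, PGAM1 0.03 and -0.07, and PFKL -0.10 and -0.04, none of them called. ENO1 and PFKL each passed with sh1 in 5 alternatives. These included library totals (-0.10 and -0.14, adjusted p = 0.0053 and 0.016) and DESeq2 (adjusted p = 0.035 and 0.043). They also included limma on log2(FPKM + 1) (adjusted p = 0.047 and 0.045) and on log2(FPKM + 0.1) (0.048 and 0.044). With sh3 PGAM1 passed under library totals alone (-0.10, adjusted p = 0.037), and PFKL in 1 alternative.

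ENO2 and PFKP rose. ENO2, the enolase typical of neurons and a HIF target (ENSG00000111674, chromosome 12, 6913745 to 6923696), had 14.4, 16.1 and 14.3 CPM in shNC, 20.0, 19.5 and 19.1 in sh1, and 19.8, 21.0 and 19.5 in sh3. The rises were 1.31-fold and 1.34-fold (adjusted p = 8.3e-04 and 7.6e-04, edgeR), with all hairpin libraries above the controls. LRRC23 overlaps ENO2 on the same strand with 18.4% of its counts, and its own change was -0.52 with sh1 (adjusted p = 0.014, edgeR). ENO2 was 0.533% to 0.599% of the FPKM of both enolases in shNC, 0.738% to 0.800% in sh1 and 0.755% to 0.816% in sh3. PFKP, the platelet-type phosphofructokinase, had 369, 377 and 381 CPM in shNC, 431, 460.4 and 457 in sh1 and 385, 398 and 389 in sh3. It rose by 0.26 ± 0.03 with sh1 (adjusted p = 3.1e-05) and not by the test with sh3 (0.05 ± 0.03), with a difference of -0.20 ± 0.03 (adjusted p = 4.3e-04, edgeR). PFKP was 63.7% to 67.0% of the FPKM of the 3 phosphofructokinase genes in shNC and 69.8% to 70.9% in sh1. PFKM, the muscle form, was not called (-0.03 and -0.02), and SENP1 overlaps it on the other strand with 287% of its counts.

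**Figure D4:**
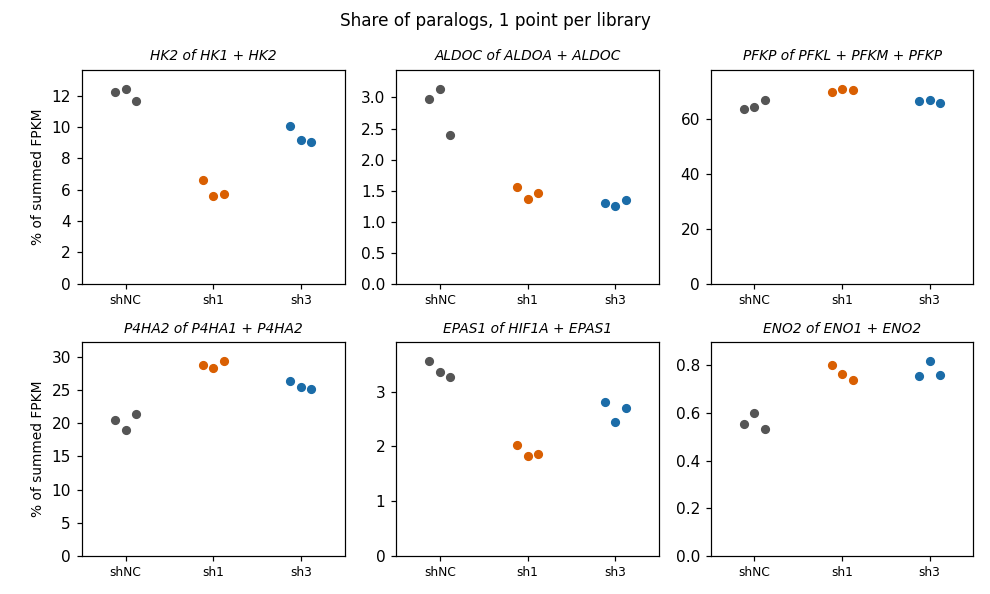
Each panel gives the share of the first-named gene in the summed FPKM of its paralogs, in percent from 0, with 1 point per library. HK2, ALDOC and EPAS1 took a smaller share in every hairpin library than in any control, and P4HA2 and ENO2 a larger one.

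Related genes outside the members were counted by list, and the lists, like the members, were drawn up with earlier results of these data known. Of 36 further hypoxia-induced genes 8 rose (22.2%) and 10 fell (27.8%) with sh1, where 19.9% and 18.8% of all tested genes did. With sh3 5 rose (13.9%) and 13 fell (36.1%), where 14.4% and 12.4% did, and the medians were -0.05 and -0.04. Among genes with a mean of at least 1 FPKM, a level not all of the list reach, 30.5% rose and 24.9% fell with sh1. With sh3 22.3% of those genes rose and 17.3% fell. EFNA1, an ephrin ligand, fell in both (-0.99 and -1.02, adjusted p = 2.6e-06 and 5.1e-06), as did ZNF395 (-1.27 and -0.48, adjusted p = 1.5e-09 and 3.2e-06) and MIR210HG, the host transcript of a hypoxia-induced microRNA (-1.08 and -0.71, adjusted p = 0.0010 and 0.020, edgeR). The endoplasmic reticulum oxidase ERO1A rose by 0.57 and 0.30 (adjusted p = 1.0e-06 and 3.5e-04, edgeR). VEGFA, the classical angiogenic target, was -0.19 with sh1 (adjusted p = 0.051) and -0.23 with sh3 (adjusted p = 0.032, edgeR). Its shNC libraries had 149.9, 148.6 and 119.6 CPM and its sh3 libraries 117.8, 121.4 and 118.4. The lowest control, replicate 3, thus lies within the sh3 range.

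Of 32 other isozymes and genes of pyruvate and lactate handling, 27 were tested. With sh1 4 rose (14.8%) and 10 fell (37%), where 19.9% and 18.8% of all tested genes did. With sh3 2 rose (7.41%) and 10 fell (37%), where 14.4% and 12.4% did. Among genes with a mean of at least 1 FPKM 24.9% fell with sh1 and 17.3% with sh3. SLC16A7, a monocarboxylate transporter, fell in both (-1.26 and -1.07, adjusted p = 7.5e-07 and 7.0e-06), with the phosphatase PDP1 that switches pyruvate dehydrogenase on (-0.77 and -0.44, adjusted p = 5.3e-08 and 1.0e-05, edgeR). The lactate exporter SLC16A3 (MCT4), a known HIF target, gave -0.81 and -0.16 (adjusted p = 3.6e-08 and 0.010), and ADPGK, an ADP-dependent glucokinase, rose by 0.74 and 0.54 (adjusted p = 2.4e-06 and 6.7e-05, edgeR). In the pentose phosphate pathway, which draws on the same glucose phosphate, 4 of 9 genes rose and 5 fell with sh1, and 1 rose and 3 fell with sh3, where 38.7% and 26.9% of all tested genes were called in either direction. All 9 have a mean of at least 1 FPKM, and among such genes 30.5% rose and 24.9% fell with sh1. With sh3 22.3% of such genes rose and 17.3% fell. The pathway genes that fell in both included TKT (-0.36 and -0.20) and PGD (-0.35 and -0.21), and PRPS1, which uses the pathway's product for nucleotide synthesis, rose by 0.68 and 0.25 (adjusted p at most 5.2e-04 for these 3 genes in either comparison, edgeR).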

How the data were processed

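Gene expression was measured in 9 SKOV3 libraries, 3 each of shNC, sh1 and sh3. Per the labels' protocols, messenger RNA was captured on oligo(dT) beads, made into dUTP-marked libraries and sequenced from both ends. The tools named were, per the submitters' processing notes, edgeR, DESeq2, StringTie 2.1.6, HISAT2 2.2.1 and cutadapt 1.9, with GRCh38. For their roles, the annotation and the strand setting, no statement was found: not given in the sources used here. Raw read counts for each gene were deposited by the authors and, beside them, the authors deposited FPKM values.

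From the counts, edgeR 4.0.16 in R 4.3.3 (filterByExpr, TMM, glmQLFit, glmQLFTest) fitted 1 mean per group over all 9 libraries. Calls had a Benjamini-Hochberg adjusted p under 0.05 over 21296 genes, two-sided, and the SE was the absolute log2 fold change divided by the square root of F. CPM used TMM-scaled library totals, so a floor of 3 counts is 0.0433 to 0.0520 CPM by library totals. Such floors cover counting error only. Fewer cells of a type and less RNA per cell cannot be told apart in bulk libraries. Counts of replicate pairs gave chi-square values of 8.73 to 18.3 for each degree of freedom, above sampling noise.

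Members and lists were chosen with earlier results of these data known. All 38 members were named. Of the related lists, up to 3 genes per direction called in both comparisons were named by mean change, and levels were compared between genes only as FPKM. ARNT, LDHB, HKDC1, SLC16A3, VEGFA and overlapping genes were named, and the promoter windows picked, with their values in view. The alternatives comprised library totals, DESeq2 1.42.0, no filter, the replicate block, limma 3.58.1 on log2(FPKM + 1) and log2(FPKM + 0.1), the 2 groups alone and each library left out. The list of leukocyte markers also held CD3E and HBB, a hemoglobin gene, and neither symbol was found in the deposited table. Some genes of the related lists are counted but not reported here by name.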

Additional observations from a re-analysis of the deposited data

How the results depend on the processing

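The counts of members called changed by at most 1.5 times under each alternative. For sh1 against shNC they were 5 higher in all 16 alternatives and 20 to 25 lower, for sh3 against shNC 3 to 4 higher and 14 to 17 lower, and for sh3 against sh1 13 to 15 higher and 4 to 6 lower. With each library left out in turn, where the group left with 2 libraries shares the spread of the others, the lower counts were 20 to 24, 14 to 17 and 4 to 6. Of 1823 values of single members under the alternatives, 44 lost their call, 22 gained one and 0 changed sign while called, and 57 that were called in neither setting changed sign. The lost calls belonged to EGLN3, PDK1, PGAM1, GPI, TPI1, MXI1 and PFKFB4. In sh3 against sh1 EGLN3 lost its call in 10 of 16 alternatives and PGAM1 in 7. The cause was not tested. Library totals in place of TMM moved the median log2 fold change of all genes from -0.02 to -0.06 for sh1 and from -0.01 to -0.04 for sh3, so member changes of that size depend on the scaling. The labels number the replicates 1 to 3 in each group. Deviations of same-numbered libraries correlated at -0.0927 to 0.0303, and those of different numbers at -0.0925 to 0.115, so no pairing by number was seen. With 3 libraries per group, these correlations cannot show that no pairing exists. With the replicate block 5 members were higher and 22 lower for sh1, 4 and 14 for sh3, and 14 and 6 for sh3 against sh1. Depth limits CA9, SLC2A3 and ANKRD37, and close copies limit BNIP3 and SLC2A3.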
